A study of Mus musculus with 8 samples.

Results

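The genes described here make cholesterol and fatty acids: the enzymes of the sterol branch, those of the fatty acid branch, and the proteins that regulate both. The 35 genes were named by symbol, and 31 of them had a probe set assigned to a single gene symbol, out of 17097 such genes on the array. These 31 comprised 15 of 17 sterol enzymes, 12 of 13 fatty acid enzymes and 4 of 5 regulators. Where a gene had several such probe sets, the set with the highest mean over all arrays stood for it. Acat2, Pmvk, Srebf1 and Scd2 had no such probe set and are not analysed here. All 31 genes entered the test across 14403 genes, which required a log2 signal above 4.85 on at least 2 arrays. On all 8 arrays 30 of them lay above that level, and the exception was Elovl3, an elongase of saturated fatty acids, with signals from 4.41 to 5.02.

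RNA was measured on 8 arrays of cells sorted from the back skin of 4 mice with basal cell carcinoma, a tumour of the skin that depends on Hedgehog signalling. The groups were vismodegib-treated Lgr5+Lrig1+ cells, untreated Lgr5+Lrig1+ cells, vismodegib-treated Lgr5-negative Lrig1+ cells (spelled Lrg5-Lrig1+ in the labels) and untreated Lgr5-negative Lrig1+ cells, with n = 2 mice each. Every mouse carried K14-CreER/Ptch1cKO, an inducible Cre under the keratin 14 promoter, active in basal keratinocytes, that deletes the Hedgehog receptor gene Ptch1, so the controls carry the deletion too. Vismodegib inhibits Smoothened, the protein that Ptch1 restrains; the labels give no dose, duration, age or sex. Both populations of a mouse came from the same skin and were parted by a green fluorescent reporter of Lgr5, a stem cell receptor, after staining for Lrig1, another follicle stem cell marker. They are called Lgr5-positive and Lgr5-negative below, after the sort and not after their level of Lgr5 mRNA.

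Cholesterol and fatty acids are both built from acetyl-CoA. The sterol branch runs through mevalonate, farnesyl diphosphate and squalene to lanosterol and on to cholesterol, while the fatty acid branch carboxylates acetyl-CoA, assembles palmitate, and then lengthens and desaturates the chain. Both branches are switched on by SREBP transcription factors, which the escort protein Scap carries out of the endoplasmic reticulum when sterols are low and which the Insig proteins hold back when sterols are high. In skin these lipids form the epidermal barrier and sebum, and sterols also bind Smoothened, the drug's target.

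Signals are log2 values that the authors normalized by robust multi-array averaging. They compare arrays for a given probe set and do not compare genes with each other. A fold change is the difference between group means, vismodegib minus untreated or Lgr5-positive minus Lgr5-negative, with its standard error (SE) from limma and a p-value adjusted over the 14403 genes (Benjamini-Hochberg) and called at 0.05. Array medians lay between 6.13 and 6.20. The 6 keratinocyte markers gave summed linear signals from 20500 to 25000, while markers of T cells, dermal fibroblasts, adipocytes and endothelium summed to between 92.3 and 383. The lists hold different probe sets, so these sums are not shares of cells. Between untreated populations the fibroblast marker Col1a1 was called higher in Lgr5-positive cells (0.88, adjusted p = 0.0147). The T cell marker Cd3e was called lower there (−0.93, adjusted p = 0.0255). Gli1, a Hedgehog target, was at 6.42 and 6.39 in vismodegib-treated Lgr5-positive cells, against 9.73 and 10.13 in untreated ones. In Lgr5-negative cells Gli1 was at 6.56 and 6.37 with vismodegib, against 9.05 and 8.75 without it. Lgr5 mRNA was at 5.46 and 4.83 in vismodegib-treated Lgr5-negative cells, against 8.52 and 8.4 in untreated ones. In Lgr5-positive cells Lgr5 was at 9.44 and 10.03 with vismodegib, against 10.98 and 11 without it. The Lgr5-negative cells thus carried more Lgr5 mRNA in untreated than in treated mice. The part of this in the comparisons below was not tested. Macrophage and other myeloid genes and cycling genes also differed between the groups, and their values stand beside the results below. In sorted bulk samples, fewer cells of a type and less RNA per cell cannot be told apart.

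The promoters of the genes were read from a RefSeq table for build GRCm38.p6, which holds 28 of the 35. The 250 bases before each gene start were searched on both strands for TCACNCCAC (a classical sterol regulatory element), for CCAAT, which binds NF-Y, a partner of SREBP, and for the E-box CACGTG. None of these motifs contains another, and a gene with several starts counted once. CCAAT stood in 22 of 28 genes (78.6%), against 37.5% of all 27025 genes in the table. The split by branch was 13 of 14 sterol enzymes, 5 of 9 fatty acid enzymes and 4 of 5 regulators. CACGTG stood in 6 of 28 (21.4%), against 6.86% of all genes. TCACNCCAC stood in Hmgcs1 alone, against 1.22% of all genes. A match is a description of letters and not a measured binding site. The table had no entry for Fdft1, Fdps, Sqle, Elovl3, Scd1, Scd2 and Fads1.

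The windows of 6 genes are shown because Mvd, Lss, Hsd17b7, Fads2 and Elovl6 carry results below and Hmgcs1 alone holds the sterol element. They are chr8:122443423-122443672 (minus strand) for Mvd, chr10:76531355-76531604 (plus) for Lss, chr1:169969206-169969455 (minus) for Hsd17b7, chr13:119690101-119690350 (plus) for Hmgcs1, chr19:10101504-10101753 (minus) for Fads2 and chr3:129532136-129532385 (plus) for Elovl6, all ending at the base before the start. Capitals mark CCAAT or its reverse complement ATTGG, the E-box CACGTG and, in Hmgcs1, the sterol element.
Mvd: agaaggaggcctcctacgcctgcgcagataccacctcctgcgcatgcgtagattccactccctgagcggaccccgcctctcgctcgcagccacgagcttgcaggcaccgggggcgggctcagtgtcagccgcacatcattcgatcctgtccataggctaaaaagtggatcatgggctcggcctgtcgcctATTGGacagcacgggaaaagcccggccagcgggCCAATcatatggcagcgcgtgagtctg
Lss: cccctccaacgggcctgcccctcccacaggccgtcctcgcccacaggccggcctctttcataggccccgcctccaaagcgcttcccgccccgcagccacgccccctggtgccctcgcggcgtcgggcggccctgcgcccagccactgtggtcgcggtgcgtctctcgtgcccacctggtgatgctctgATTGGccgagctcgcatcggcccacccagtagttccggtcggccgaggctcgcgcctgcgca
Hsd17b7: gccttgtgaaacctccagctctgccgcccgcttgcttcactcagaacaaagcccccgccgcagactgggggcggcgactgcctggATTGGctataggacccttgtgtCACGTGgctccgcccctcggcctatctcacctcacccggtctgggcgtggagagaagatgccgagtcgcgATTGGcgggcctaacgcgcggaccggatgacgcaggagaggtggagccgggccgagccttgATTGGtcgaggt
Hmgcs1: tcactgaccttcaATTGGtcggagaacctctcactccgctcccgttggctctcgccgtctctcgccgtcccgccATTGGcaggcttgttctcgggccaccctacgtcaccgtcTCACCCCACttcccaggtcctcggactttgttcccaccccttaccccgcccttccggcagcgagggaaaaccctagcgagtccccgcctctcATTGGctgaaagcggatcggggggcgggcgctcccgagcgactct
Fads2: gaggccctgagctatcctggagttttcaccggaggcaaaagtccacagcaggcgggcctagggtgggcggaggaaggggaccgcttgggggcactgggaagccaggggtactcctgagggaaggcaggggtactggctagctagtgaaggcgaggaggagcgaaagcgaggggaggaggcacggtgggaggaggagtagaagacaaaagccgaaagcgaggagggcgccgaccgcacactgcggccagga
Elovl6: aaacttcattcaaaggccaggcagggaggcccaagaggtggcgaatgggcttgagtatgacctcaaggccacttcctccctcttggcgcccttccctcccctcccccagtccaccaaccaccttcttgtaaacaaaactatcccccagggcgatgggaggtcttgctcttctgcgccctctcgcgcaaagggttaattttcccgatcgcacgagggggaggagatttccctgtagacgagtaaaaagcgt
The CCAAT letters nearest the start, on either strand, begin at −27 in Mvd, −62 in Lss, −12 in Hsd17b7 and −45 in Hmgcs1, counted from the start, and Hsd17b7 and Hmgcs1 hold 3 copies each. The windows of Fads2 and Elovl6 hold none of the 3 motifs, which says only that these letters are not in them.

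In the tumours of untreated mice, Lgr5-positive cells carried less mRNA of 5 sterol enzymes and of the elongase Elovl1 than Lgr5-negative cells, and more of the polyunsaturated fatty acid desaturases Fads1 and Fads2. The comparison asked what sets the Lgr5-positive cells apart before therapy. Of the 31 genes, 6 were lower and 2 higher in Lgr5-positive cells, where 10.9% of all tested genes were called lower and 6.21% higher. All 5 sterol calls were lower, and the median log2 difference over the 15 sterol enzymes was −0.62, against 0.02 over all genes. In the fatty acid branch 1 of 12 was lower and 2 were higher, with a median of 0.11. In 10 of the 15 sterol enzymes both Lgr5-positive arrays lay below both Lgr5-negative arrays, a pattern that 31.2% of all tested genes showed.

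**Figure D1:**
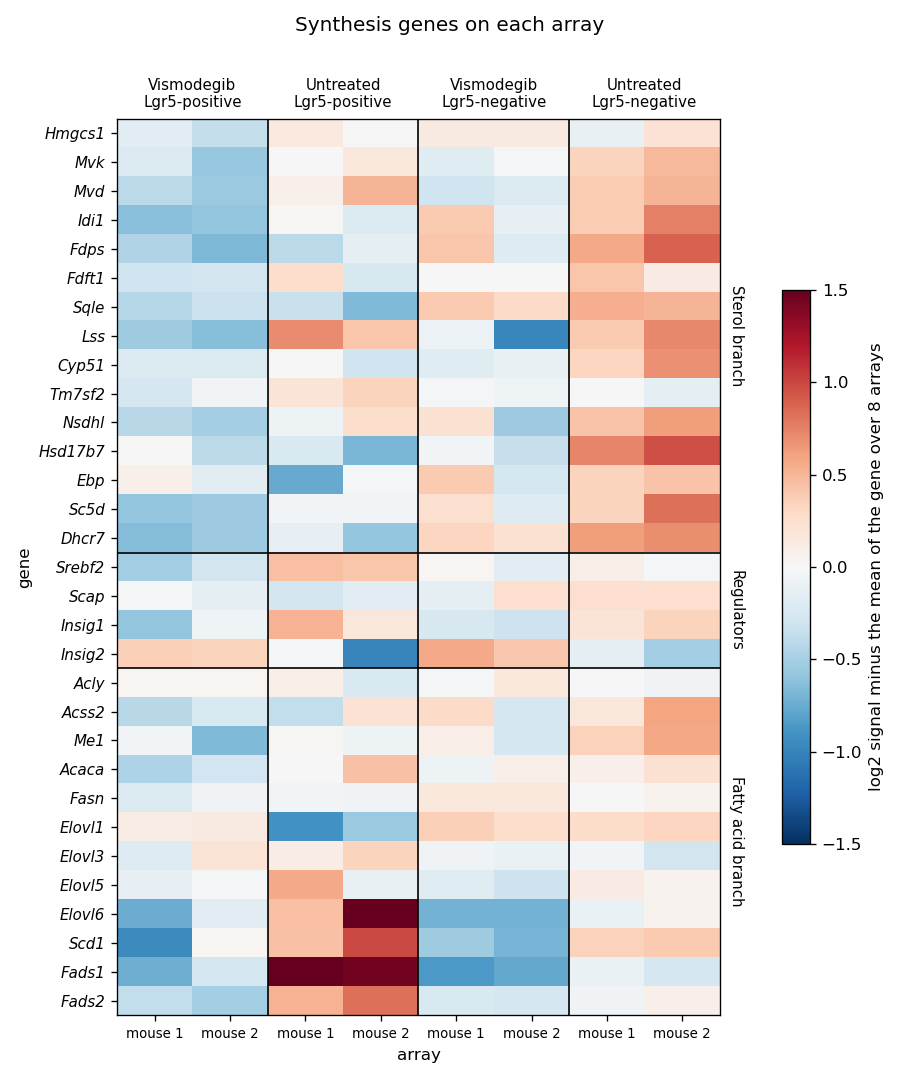
Log2 signal of the 31 genes on each of the 8 arrays, as the difference from the gene's own mean over all arrays, with red above and blue below; colours saturate at the ends of the scale. Columns run by group and mouse, rows by branch. Fads1, Fads2 and Elovl6 are highest in untreated Lgr5-positive cells, and Sqle and Dhcr7 are highest in untreated Lgr5-negative cells.

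Among the enzymes of the mevalonate and squalene steps, Sqle and Fdps were called. Sqle, squalene epoxidase and a controlled step of the pathway, was at 8.52 and 8.19 in untreated Lgr5-positive cells, against 9.40 and 9.36 in untreated Lgr5-negative cells. Fdps, which makes farnesyl diphosphate, was at 8.02 and 8.29 against 9.0 and 9.31. In both genes the 2 Lgr5-positive arrays lay below the 2 Lgr5-negative ones. The differences were −1.02 ± 0.14 for Sqle (SE, adjusted p = 0.0038) and −1.0 ± 0.22 for Fdps (adjusted p = 0.0235). The Fdps call was lost when any of 3 untreated arrays was left out (adjusted p up to 0.161). Idi1, which isomerises the isoprene unit, had a difference of −0.67 ± 0.20 that missed the threshold (adjusted p = 0.0616), and Hmgcs1, Mvk, Mvd, Fdft1 and Lss had differences from −0.33 to 0.02.

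Past lanosterol, 3 enzymes were called. Hsd17b7, a 3-ketosteroid reductase of demethylation at carbon 4, was at 7.87 and 7.41 in untreated Lgr5-positive cells, against 8.83 and 9.06 in untreated Lgr5-negative cells, a difference of −1.30 ± 0.21 (adjusted p = 0.00765). Dhcr7, which completes cholesterol from its last precursor, was at 9.10 and 8.64 against 9.85 and 9.92, a difference of −1.02 ± 0.16 (adjusted p = 0.00691). Both genes showed non-overlapping groups, and both missed the threshold without the second untreated Lgr5-negative array (adjusted p = 0.072 and 0.064). Cyp51, the lanosterol demethylase, was at 10.21 and 9.91 in Lgr5-positive cells, against 10.53 and 10.89 in Lgr5-negative cells, a difference of −0.65 ± 0.16 (adjusted p = 0.0319). The Cyp51 call is a weak one: with the mouse as a block its adjusted p was 0.0515, with single arrays left out it reached 0.204, and its dimmer probe sets gave −0.81 and −0.19. A second probe set of Hsd17b7 gave −1.48, while its dimmest gave 0.51. The remaining late enzymes were not called: Nsdhl, Ebp and Sc5d had differences from −0.77 to −0.44, and Tm7sf2, a sterol reductase, had one of 0.33. Of these, Ebp, the sterol isomerase, passed the threshold with the mouse as a block (adjusted p = 0.105 without it and 0.0397 with it).

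The desaturases Fads1 and Fads2 were higher in Lgr5-positive cells. Fads1, the delta-5 desaturase of polyunsaturated fatty acids, was at 9.0 and 8.91 in untreated Lgr5-positive cells, against 7.37 and 7.21 in untreated Lgr5-negative cells. Its difference of 1.67 ± 0.17 was a 3.17-fold higher signal (adjusted p = 0.00155). Fads2, the delta-6 desaturase encoded beside it in the genome, was at 6.97 and 7.27 against 6.39 and 6.52, a difference of 0.67 ± 0.14 (adjusted p = 0.0174). In both genes the Lgr5-positive arrays lay above the Lgr5-negative ones, though the Fads2 call was lost without any of 3 untreated arrays (adjusted p up to 0.106). The other probe sets of these genes pointed the same way with smaller values, 0.46 for Fads1 and 0.23 and 0.26 for Fads2, and the mean over the Fads1 sets was 1.06 (adjusted p = 0.00201). Scd1, the delta-9 desaturase, was at 10.83 and 11.38 in untreated Lgr5-positive cells, against 10.73 and 10.78 in untreated Lgr5-negative cells. Its difference of 0.35 ± 0.31 was not called (adjusted p = 0.489), and its second probe set gave 0.53.

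Among elongases, Elovl1, which extends very long saturated chains, was lower in Lgr5-positive cells, at 9.93 and 10.29 against 11.12 and 11.16 in Lgr5-negative cells. The difference was −1.03 ± 0.14 (adjusted p = 0.00394), with groups well apart. Elovl6, which lengthens palmitate to stearate, was at 9.40 and 10.86 in Lgr5-positive cells, against 8.86 and 9.01 in Lgr5-negative cells. Its 2 Lgr5-positive mice differed more from each other than the lower of them did from the Lgr5-negative mice, and the difference of 1.20 ± 0.42 missed the threshold (adjusted p = 0.0933, and 0.0401 with the mouse as a block). The enzymes that supply and build palmitate, Acly, Acss2, Me1, Acaca and Fasn, had differences from −0.49 to 0.07, none of them called, and the elongases Elovl3 and Elovl5 lay at 0.38 and 0.14 without a call. Among regulators, Srebf2 (0.40 ± 0.13, adjusted p = 0.0824) and Scap (−0.47 ± 0.15, adjusted p = 0.0659) missed the threshold, and Insig1 and Insig2 lay at 0.08 and −0.19.

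The 9 cycling genes moved in the same comparison: 7 were lower in untreated Lgr5-positive cells, with a median of −1.24 and summed linear signals of 1770 and 2770, against 4800 and 6090 in Lgr5-negative cells. Of the 12 macrophage, dendritic and Langerhans cell markers, 6 were lower and 0 higher, with sums of 751 and 563 in Lgr5-positive cells, against 2140 and 2880 in Lgr5-negative cells. The part of either group in the differences above was not tested. Without the second untreated Lgr5-negative array 3 genes stayed called, namely Sqle, Fads1 and Elovl1.

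**Figure D2:**
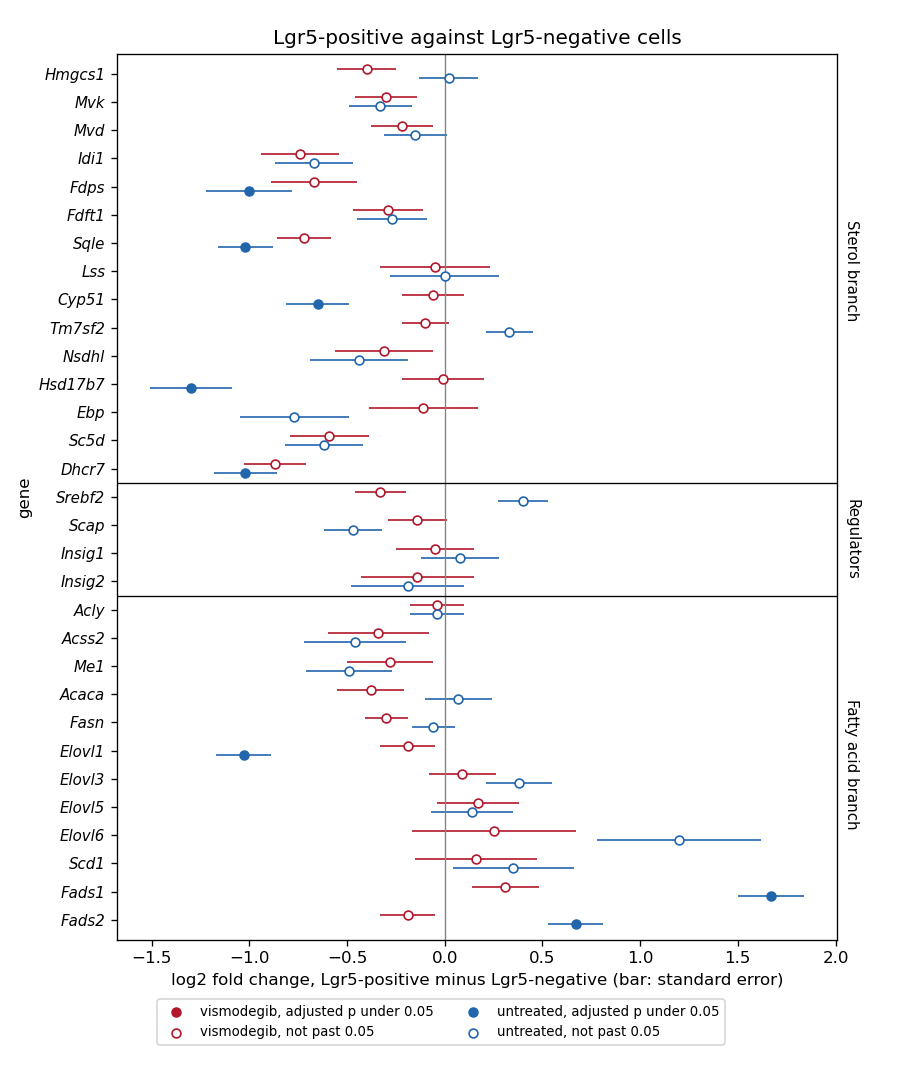
Log2 difference between Lgr5-positive and Lgr5-negative cells for each gene, after vismodegib and untreated; bars are standard errors and filled points have an adjusted p under 0.05. In untreated mice 5 sterol enzymes and Elovl1 are called on the negative side and Fads1 and Fads2 on the positive side; after vismodegib no gene is called and all 15 sterol enzymes lie below 0.

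After vismodegib, no gene of the 31 differed between the populations past the threshold by limma, where 0.472% of all tested genes did. At an unadjusted p under 0.05, 8 of the 31 were lower in Lgr5-positive cells and 0 higher, where 5.98% of all tested genes were lower and 6.16% higher. Of these 8, 6 were sterol enzymes. All 15 sterol differences lay below 0, with a median of −0.30, against −0.01 over all genes. Dhcr7 was at 8.57 and 8.67 in vismodegib-treated Lgr5-positive cells, against 9.54 and 9.45 in vismodegib-treated Lgr5-negative cells. Sqle was at 8.43 and 8.53 against 9.25 and 9.14. In both genes the populations did not overlap, but the differences of −0.87 ± 0.16 for Dhcr7 (adjusted p = 0.0848) and −0.72 ± 0.14 for Sqle (adjusted p = 0.0951) missed the threshold. Fads1 was at 6.73 and 7.20 in Lgr5-positive cells with vismodegib, against 6.60 and 6.70 in Lgr5-negative cells with vismodegib, and Fads2 at 6.08 and 5.93 against 6.21 and 6.18. Neither desaturase was called between the populations after the drug, with differences of 0.31 ± 0.17 for Fads1 (adjusted p = 0.513) and −0.19 ± 0.14 for Fads2 (adjusted p = 0.632). Fdps was at 7.98 and 7.76 in Lgr5-positive cells, against 8.84 and 8.23 in Lgr5-negative cells (adjusted p = 0.303). Cyp51 was at 9.99 and 9.99 against 10.02 and 10.09, a difference of −0.06 ± 0.16 (adjusted p = 0.909). The dimmer probe sets of Cyp51 gave −0.81 and −0.56 here, so its value depends on the probe set. Hsd17b7 was at 8.10 and 7.69 against 8.06 and 7.75, a difference of −0.01 ± 0.21. The cycling genes had 0 of 9 called by limma, with 7 lower and 0 higher at an unadjusted p under 0.05 and a median of −0.87. Of the myeloid markers 1 was called, Lyz2, which was higher in Lgr5-positive cells (2.56 ± 0.38, adjusted p = 0.0475). Myeloid sums were 9150 and 6930 in Lgr5-positive cells, against 5370 and 4420 in Lgr5-negative cells, and their part was not tested.

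In Lgr5-positive cells, vismodegib lowered the desaturases Fads1 and Fads2 and the elongase Elovl6, and with them the sterol enzymes Mvd and Lss and the transcription factor Srebf2, while Elovl1 rose. Of the 31 genes, 6 fell and 1 rose, where 4.51% of all tested genes fell and 6.37% rose. By branch, 2 of 15 sterol enzymes fell (median −0.33), 3 of 12 fatty acid enzymes fell and 1 rose (median −0.32), and 1 of 4 regulators fell (median −0.27), against a median of −0.01 over all genes. Both vismodegib arrays lay below both untreated arrays in 10 of 15 sterol enzymes and 5 of 12 fatty acid enzymes, compared with 26.9% of all tested genes. This comparison and the one between untreated populations share the 2 untreated Lgr5-positive arrays, so their values are not independent.

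**Figure D3:**
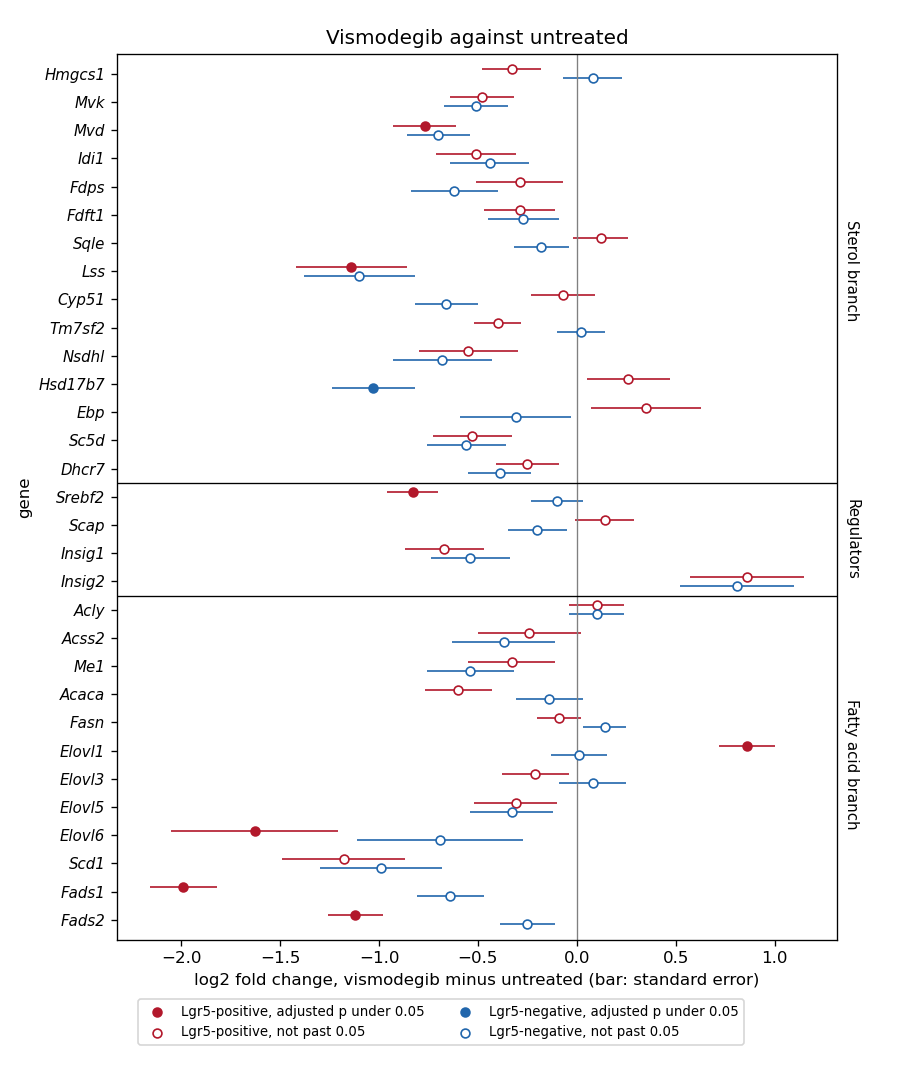
Log2 fold change of each gene with vismodegib in Lgr5-positive and in Lgr5-negative cells; bars are standard errors and filled points have an adjusted p under 0.05. In Lgr5-positive cells Fads1, Elovl6, Lss, Fads2, Srebf2 and Mvd are called below 0 and Elovl1 above it; in Lgr5-negative cells Hsd17b7 is the single call.

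Fads1 had the largest change of the 31. It was at 6.73 and 7.20 in vismodegib-treated Lgr5-positive cells, against 9.0 and 8.91 in untreated ones, a log2 change of −1.99 ± 0.17 (3.98-fold lower, adjusted p = 0.000621). Fads2 was at 6.08 and 5.93 with vismodegib, against 6.97 and 7.27 without it, a change of −1.12 ± 0.14 (2.17-fold lower, adjusted p = 0.00288). Both desaturases thus stood well below every untreated Lgr5-positive array, and these 2 calls remained under every alternative tried. The size of the fall depended on the probe set: the dimmer ones gave −0.49 for Fads1 and −0.44 and −0.48 for Fads2, and the mean of a gene's probe sets gave −1.24 for Fads1 (adjusted p = 0.000983) and −0.68 for Fads2 (adjusted p = 0.00475). Scd1 was at 9.43 and 10.42 with vismodegib, against 10.83 and 11.38 without it. Its groups did not overlap, yet the difference of −1.18 ± 0.31 narrowly missed the threshold (adjusted p = 0.0541). The second Scd1 probe set gave −1.52, and the mean of both gave −1.35 (adjusted p = 0.0347).

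Among the elongases, Elovl6 was at 8.21 and 8.80 in vismodegib-treated Lgr5-positive cells, against 9.40 and 10.86 in untreated ones. The change of −1.63 ± 0.42 passed narrowly (adjusted p = 0.049), rests much on the higher untreated mouse and was −0.90 without it. Without the first vismodegib array it was −1.33. The Elovl6 call was lost in 8 of 16 alternatives, among them the fit with no filter (adjusted p = 0.0682). Elovl1 was at 10.95 and 10.98 with vismodegib, against 9.93 and 10.29 without it, a rise of 0.86 ± 0.14 (adjusted p = 0.00945, and up to 0.0641 without either vismodegib array). Its second probe set gave 0.32, and the mean of both gave 0.59 with no call (adjusted p = 0.072). With the drug the Elovl1 signal was near the 11.12 and 11.16 of untreated Lgr5-negative cells. Acaca, the acetyl-CoA carboxylase that commits carbon to fatty acids, had a difference of −0.60 ± 0.17 (adjusted p = 0.0643). Its second probe set gave 0.07, and the mean of both gave −0.26 (adjusted p = 0.36). Fasn, the fatty acid synthase, and Acly, which makes cytosolic acetyl-CoA from citrate, lay at −0.09 ± 0.11 and 0.10 ± 0.14 without a call.

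In the sterol branch, Mvd, which decarboxylates mevalonate diphosphate, was at 6.78 and 6.62 in vismodegib-treated Lgr5-positive cells, against 7.25 and 7.69 in untreated ones, a change of −0.77 ± 0.16 (adjusted p = 0.0239). Its probe set is of a type that can bind related transcripts, and the other one gave −0.45. Lss, which closes the rings of lanosterol, was at 6.22 and 6.12 against 7.46 and 7.17, a change of −1.14 ± 0.28 (2.21-fold lower, adjusted p = 0.0384). In both genes every vismodegib array lay below every untreated one. Both calls were lost with single arrays left out (adjusted p up to 0.134 for Mvd and 0.167 for Lss). The remaining 13 sterol enzymes were not called, and Sqle, Hsd17b7 and Ebp had values above 0 (0.12, 0.26 and 0.35). Cyp51 lay at −0.07, though its dimmer probe sets gave −0.82 and −0.45.

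Of the regulators, Srebf2, the transcription factor gene for sterol synthesis, was at 8.41 and 8.65 in vismodegib-treated Lgr5-positive cells, against 9.38 and 9.34 in untreated ones. The change was −0.83 ± 0.13 (1.78-fold lower, adjusted p = 0.00855), and a second probe set gave −0.68. Without the first vismodegib array the adjusted p was 0.071. Insig1, a brake on SREBP that is itself an SREBP target, was at 8.42 and 8.95 against 9.53 and 9.18, a difference of −0.67 ± 0.20 (adjusted p = 0.0738). Insig2, the brake that is not induced by SREBP, had signals of 10.42 and 10.40 with vismodegib, against 10.03 and 9.06 without it. The 3 Insig2 probe sets gave 0.86, 0.85 and 1.10, but the untreated mice lay far apart and the difference of 0.86 ± 0.29 was not called (adjusted p = 0.108). The Insig genes therefore lay on opposite sides of 0 with no call for either.

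Myeloid transcripts moved strongly in this comparison. Of 12 macrophage, dendritic and Langerhans cell markers 10 rose and 0 fell with vismodegib in Lgr5-positive cells (median 2.78), with summed linear signals of 9150 and 6930, against 751 and 563 in untreated ones. Of 8 genes listed as sebocyte markers 1 rose, Krt79 (0.68, adjusted p = 0.0177), and 0 fell. Their sums were 6600 and 6670 with vismodegib, against 4380 and 6120 without it. Most of each sum came from Krt79, at 12.40 and 12.23 with vismodegib, against 11.50 and 11.76 without it. The sums therefore follow this gene and are not a measure of sebocytes. The mean log2 level of the 8 markers was 7.17 and 7.77 with vismodegib, against 7.39 and 7.85 without it. Fabp4, Mc5r and Cidea stayed between 4.88 and 6.49 on all arrays, and Cidea had an uncalled difference of −1.03 ± 0.39 (adjusted p = 0.152). Far2, a fatty alcohol enzyme of sebocytes, was at 6.75 and 9.10 with vismodegib, against 9.16 and 10.57 without it. Its difference of −1.94 ± 0.74 was not called (adjusted p = 0.151). The sums of the 9 cycling genes were 1780 and 1890 with vismodegib, against 1770 and 2770 without it. The part of these cells in the changes above was not tested. Leaving out the first vismodegib-treated Lgr5-positive array left 2 genes called, Fads1 and Fads2. Leaving out either untreated Lgr5-negative array, which enter only the estimate of the spread, left 4.

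In Lgr5-negative cells, vismodegib lowered Hsd17b7 alone past the threshold. It was the single call of 31, where 2.06% of all tested genes fell and 1.26% rose. Hsd17b7 was at 8.06 and 7.75 in vismodegib-treated Lgr5-negative cells, against 8.83 and 9.06 in untreated ones, a change of −1.03 ± 0.21 (2.05-fold lower, adjusted p = 0.048). Its other probe sets gave −1.08 and, for the dimmest, −0.14, and the call was lost when any of 6 arrays was left out (adjusted p up to 0.307). The sterol enzymes as a group lay lower: 13 of 15 were below 0, and the median was −0.51 against 0.00 over all genes. In 11 of them both vismodegib arrays lay below both untreated arrays, compared with 24.9% of all tested genes. The untreated Lgr5-negative arrays also enter the comparison between untreated populations, so the values of these 2 comparisons, including those of Hsd17b7, are not independent.

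Lss was at 6.66 and 5.77 in vismodegib-treated Lgr5-negative cells, against 7.15 and 7.48 in untreated ones, and its difference of −1.10 ± 0.28 was not called (adjusted p = 0.0807). Mvd, at 6.88 and 6.96 against 7.56 and 7.69, had a difference of −0.70 ± 0.16 (adjusted p = 0.0649), close to the value in Lgr5-positive cells. Neither gene's groups overlapped. Cyp51 had a difference of −0.66 ± 0.16 (adjusted p = 0.0728), and its dimmer probe sets gave −0.20 and −0.70. In the fatty acid branch limma called 0 of 12 genes, with a median of −0.29. At an unadjusted p under 0.05, 3 of the 12 were lower and 0 higher, where 10.3% of all tested genes were lower and 8.44% higher. Scd1 was at 9.85 and 9.69 in vismodegib-treated Lgr5-negative cells, against 10.73 and 10.78 in untreated ones, a difference of −0.99 ± 0.31 (adjusted p = 0.147), and Fads1, at 6.60 and 6.70 against 7.37 and 7.21, had a difference of −0.64 ± 0.17 (adjusted p = 0.0925). Both had groups that did not overlap. Fads2 had a difference of −0.25 ± 0.14 (adjusted p = 0.375). Elovl6 was at 8.24 and 8.25 with vismodegib, against 8.86 and 9.01 without it, a difference of −0.69 ± 0.42 (adjusted p = 0.436), and Elovl1 at 11.20 and 11.10 against 11.12 and 11.16 had a difference of 0.01 ± 0.14. Of the regulators, Srebf2 was at 8.96 and 8.76 with vismodegib, against 9.01 and 8.91 without it, a difference of −0.10 ± 0.13, though its second probe set gave −0.76. Insig1 (−0.54 ± 0.20, adjusted p = 0.196) and Insig2 (0.81 ± 0.29, adjusted p = 0.188) lay on opposite sides of 0 here too. Neither was called, and in both the groups did not overlap. Of the myeloid markers 2 of 12 rose, with sums of 5370 and 4420 with vismodegib, against 2140 and 2880 without it. All 9 cycling genes lay below 0 (median −0.62), none called by limma and 5 lower at an unadjusted p under 0.05.

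The difference between the vismodegib effects, Lgr5-positive minus Lgr5-negative, was tested directly and called for Fads1 alone of the 31 genes, where 0.41% of all tested genes had a called difference below 0 and 0.993% above it. Fads1 fell by 1.99 in Lgr5-positive cells and had an uncalled difference of −0.64 in Lgr5-negative cells, a difference of −1.35 ± 0.24 (adjusted p = 0.044). The call is narrow and was lost in 9 of 16 alternatives. Fads2 (−0.86 ± 0.20, adjusted p = 0.0835), Hsd17b7 (1.29 ± 0.30, adjusted p = 0.0876) and Elovl1 (0.85 ± 0.20, adjusted p = 0.0897) missed the threshold. For the other calls, Elovl6 (adjusted p = 0.449), Srebf2 (adjusted p = 0.111), Mvd (adjusted p = 0.90) and Lss (adjusted p = 0.965), the effects were not shown to differ between the populations.

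**Figure D4:**
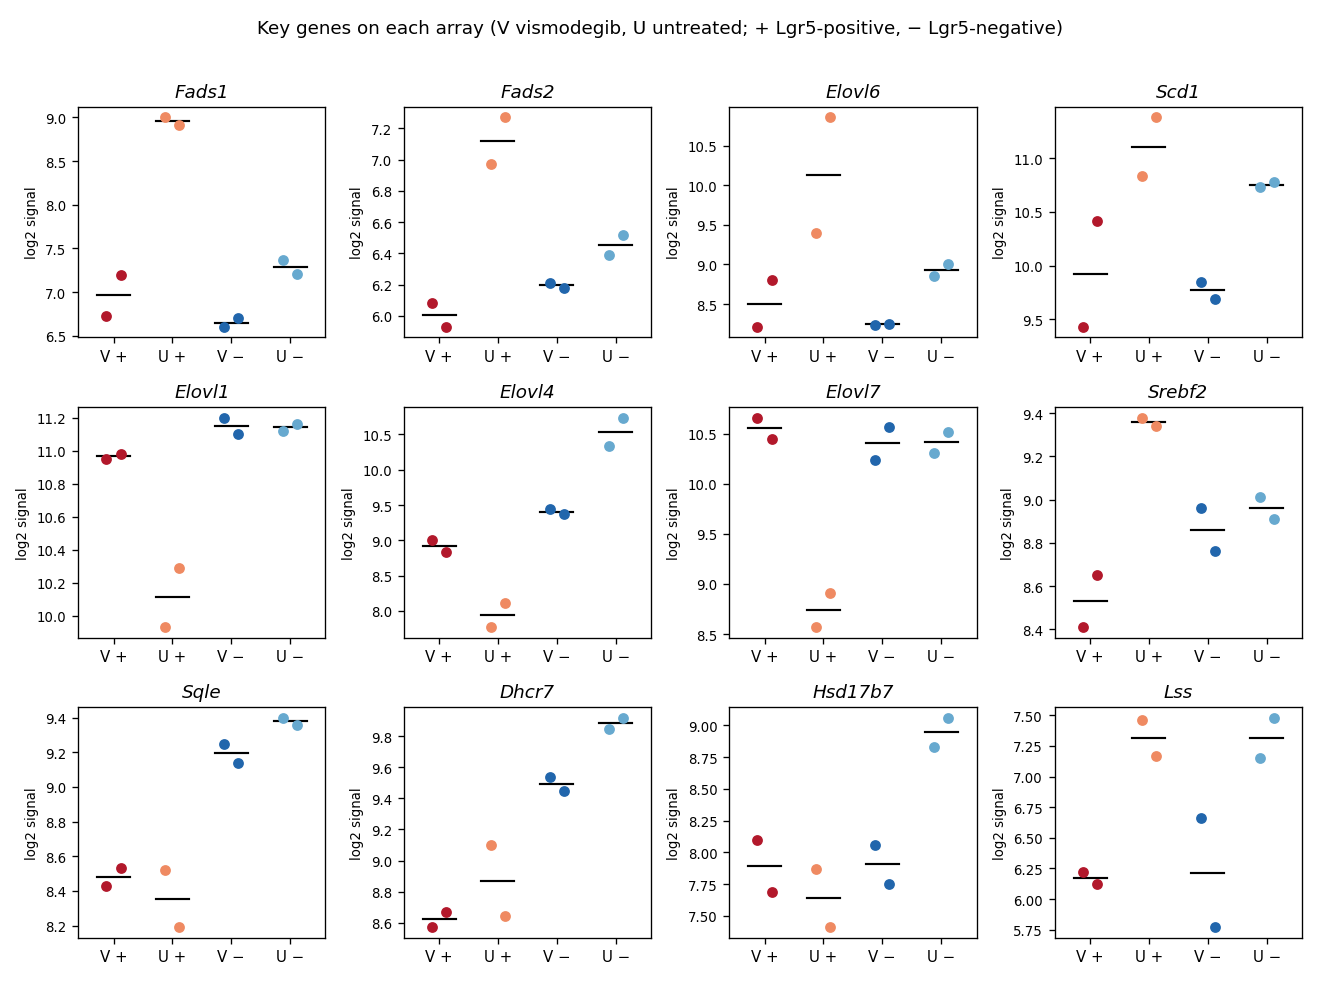
Log2 signal on each array for the genes the results turn on, by group with vismodegib left of untreated within each population; points are mice and lines are group means. Fads1 stands at 9.0 and 8.91 in untreated Lgr5-positive cells and between 6.60 and 7.37 on the other 6 arrays; Sqle and Dhcr7 separate the populations with and without the drug.

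The branches were compared by the mean log2 level of their genes on each array. The sterol mean was 7.81 and 7.73 in vismodegib-treated Lgr5-positive cells, against 8.12 and 8.08 in untreated ones. In Lgr5-negative cells it was 8.27 and 8.0 with vismodegib, against 8.54 and 8.71 without it. Within each treatment the Lgr5-positive arrays were lower, and within each population the vismodegib arrays were lower. The fatty acid mean was 8.32 and 8.51 in vismodegib-treated Lgr5-positive cells, against 8.86 and 9.09 in untreated ones. In Lgr5-negative cells it was 8.51 and 8.44 with vismodegib, against 8.75 and 8.81 without it. The fatty acid mean thus had the same order by treatment but not by population: among untreated arrays the Lgr5-positive ones were the higher. That order is narrow, 8.86 against 8.81 at the closest, with a pooled SD between replicates of 0.112. Between untreated populations 7 of the 12 gene differences lay above 0 and 5 below. The largest above 0 were Fads1 (1.67) and Elovl6 (1.20, not called), and the largest below was Elovl1 (−1.03).

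The sterol mean minus the fatty acid mean was −0.50 and −0.78 in vismodegib-treated Lgr5-positive cells, against −0.74 and −1.01 in untreated ones. In Lgr5-negative cells it was −0.24 and −0.44 with vismodegib, against −0.21 and −0.10 without it. All 4 Lgr5-positive values lay below all 4 Lgr5-negative values. Only differences between arrays carry meaning here, since the level of a mean depends on the probe sets in it. The lists were chosen with earlier results known, so no test is given for this score.

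Other genes of the same pathways are given by role. With vismodegib in Lgr5-positive cells 4.51% of all tested genes fell and 6.37% rose. Between untreated populations 10.9% were lower and 6.21% higher in Lgr5-positive cells. Of 9 further sterol and SREBP genes, 1 fell and 0 rose with vismodegib in Lgr5-positive cells: Msmo1, the methylsterol monooxygenase, at 7.68 and 7.37 against 8.45 and 8.65 (−1.03 ± 0.25, adjusted p = 0.0409). Between untreated populations 2 were lower and 0 higher in Lgr5-positive cells, Mbtps2, a protease that activates SREBP (−1.16 ± 0.17, adjusted p = 0.00564), and Erlin1, which takes part in degrading sterol-regulated proteins (−0.94 ± 0.25, adjusted p = 0.0422, and 0.0545 with the mouse as a block). With the mean of a gene's probe sets both calls were lost, at −0.57 for Mbtps2 (adjusted p = 0.0733) and −0.50 for Erlin1 (adjusted p = 0.137). In Lgr5-negative cells limma called 0 of the 9 with vismodegib, where 2.06% of all tested genes fell and 1.26% rose. At an unadjusted p under 0.05, 4 were lower and 0 higher, where 10.3% of all tested genes were lower and 8.44% higher. Of 7 genes of LXR signalling and sterol efflux, 2 rose and 0 fell with vismodegib in Lgr5-positive cells. Abcg1, a sterol exporter, was at 7.48 and 6.47 against 5.20 and 5.55 (1.60 ± 0.40, adjusted p = 0.0434). Cyp27a1, the sterol 27-hydroxylase, rose in both populations, by 0.85 ± 0.18 in Lgr5-positive (adjusted p = 0.0252) and by 1.0 ± 0.18 in Lgr5-negative cells (adjusted p = 0.0349). Abcg1 is also strongly expressed by macrophages, whose markers rose here, and their part in its change was not tested.

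Of 17 tested genes of other fatty acid and glycerolipid steps, 6 were lower and 0 higher in untreated Lgr5-positive than in untreated Lgr5-negative cells. Of all tested genes 10.9% were lower and 6.21% higher in that comparison. Elovl4, the elongase of ultra-long chains of the skin barrier, was at 7.77 and 8.11 in untreated Lgr5-positive cells, against 10.33 and 10.74 in untreated Lgr5-negative cells. This 6.06-fold lower signal (−2.60 ± 0.18, adjusted p = 0.00051) was the largest difference of the list. Elovl7, another elongase of long chains, was at 8.57 and 8.91 against 10.31 and 10.52 (−1.67 ± 0.18, adjusted p = 0.00171). The others were Mid1ip1, which promotes the activity of acetyl-CoA carboxylase (−1.12), Pgd, an enzyme of the pentose phosphate route to NADPH (−1.18), Dgat2, which makes triglyceride (−0.79), and Acsl5, an acyl-CoA synthetase (−0.43). With the mouse as a block the Acsl5 call was lost (adjusted p = 0.0625) and Lpin1, a phosphatidate phosphatase, was called higher in Lgr5-positive cells (0.60, adjusted p = 0.0842 without the block and 0.0219 with it).

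With vismodegib in Lgr5-positive cells 2 of these 17 rose and 2 fell, where 6.37% of all tested genes rose and 4.51% fell. Elovl7 was at 10.66 and 10.45, against 8.57 and 8.91 untreated, a rise of 1.82 ± 0.18 (adjusted p = 0.00106). Elovl4 was at 9.0 and 8.84, against 7.77 and 8.11 untreated, a rise of 0.98 ± 0.18 (adjusted p = 0.0131). The genes that fell were Gpam, which starts glycerolipid synthesis (−0.82 ± 0.19, adjusted p = 0.032, and −0.57 with an adjusted p of 0.0832 for the mean of its probe sets), and Lpin1 (−0.98 ± 0.20, adjusted p = 0.0223). In Lgr5-negative cells Elovl4 fell to 9.44 and 9.37 with vismodegib, against 10.33 and 10.74 untreated (−1.13 ± 0.18, adjusted p = 0.02), and none of the 17 rose. Of all tested genes 2.06% fell and 1.26% rose with vismodegib in Lgr5-negative cells. Of 7 tested fatty acid breakdown genes, Acadvl, a dehydrogenase of long acyl chains, rose in Lgr5-positive cells (0.64 ± 0.14, adjusted p = 0.0282), Ppara, a regulator of fatty acid oxidation, rose in Lgr5-negative cells (0.82 ± 0.15, adjusted p = 0.0383), and none fell. Cpt2, a carnitine transferase of mitochondrial import, was lower in untreated Lgr5-positive than in untreated Lgr5-negative cells (−1.0 ± 0.12, adjusted p = 0.00279).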

How the data were processed

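Sorted living cells of 4 mice were hybridised to 8 Affymetrix mouse arrays, 1 for each mouse and population, after cDNA amplification. The deposited values are log2 signals made by the authors with RMA, per the submitters' processing notes (version not given in the sources used here), and were used unchanged. Probe sets (45141) were named from the platform annotation: 28898 had 1 gene symbol, 551 several and 15692 none, including 104 controls. The filter level of 4.85 was percentile 25 of the whole table, and a gene had to exceed it on 2 or more arrays. limma 3.58.1 in R 4.3.3 fitted the 4 group means (lmFit and eBayes, two-sided, 4 residual and 3.53 prior degrees of freedom), with p-values adjusted by Benjamini and Hochberg over 14403 genes. The procedure was tested on simulated data.

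Both populations of a mouse come from the same animal and are paired by it; after subtracting group means, its arrays correlated across genes at 0.142 (untreated) and 0.211 (vismodegib). Equal mouse numbers in different treatments are different mice (0.00964 and −0.107). Mice are separate animals by label. The number of arrays limits the precision. The genes and lists were chosen with earlier results of these data known. Of the 31 genes, those called in any contrast, or with groups that do not overlap and a log2 fold change over 1 in size, are given by array, and the others, like most further pathway genes, by single values or ranges. Alternatives were other filters, probe set choices, cyclic loess, an intensity trend in the prior, blocks by mouse and each array left out.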

Additional observations from a re-analysis of the deposited data

Results flagged for a closer look

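For 3 genes the direct test called the vismodegib effect different between the populations. The difference, Lgr5-positive minus Lgr5-negative, was −1.35 for Fads1 (adjusted p = 0.044), from −1.99 in Lgr5-positive and −0.64 (not called) in Lgr5-negative cells. Leaving out any array other than the second vismodegib-treated Lgr5-positive one ended this call, with an adjusted p up to 0.209. For Elovl4 it was 2.12 (adjusted p = 0.0171), with a rise of 0.98 in Lgr5-positive and a fall, −1.13, in Lgr5-negative cells. Without the first vismodegib-treated Lgr5-positive array the adjusted p was 0.0833, and without the second untreated Lgr5-negative array it was 0.0717. For Elovl7 it was 1.82 (adjusted p = 0.0227), with a rise of 1.82 in Lgr5-positive cells and −0.01 (not called) in Lgr5-negative cells. That call was lost without either vismodegib-treated Lgr5-positive array (adjusted p = 0.109 and 0.059) or either untreated Lgr5-negative array (0.0697 and 0.134). Elovl4 is the gene of the 3 whose effects passed the threshold in both populations and pointed in opposite directions.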

How the results depend on the processing

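Under the 16 alternatives no called result changed direction. Many of them could not turn one, since filters, the intensity trend, blocks and arrays left out of other groups keep the fold change as it is. The vismodegib calls of Fads1 and Fads2 in Lgr5-positive cells and the untreated population calls of Fads1, Sqle and Elovl1 held in each of the 16. The count of called genes in Lgr5-positive cells (7) was 11 with cyclic loess between arrays and from 2 to 8 with an array left out, and the median of the fatty acid branch lay from −0.43 to −0.32 with an array left out. In Lgr5-negative cells the count of 1 became 0 with no filter and 0 with cyclic loess, and lay from 0 to 3 with an array left out, with medians from −0.64 to −0.31 (sterol) and from −0.33 to −0.17 (fatty acid). Between untreated populations the count of 8 lay from 3 to 11, the sterol median from −0.81 to −0.41, and the fatty acid median of 0.11 became 0.25 with cyclic loess. Between populations after vismodegib the count of 0 lay from 0 to 1 and the sterol median from −0.44 to −0.26. For the difference of the effects the count of 1 became 0 with no filter and 0 with the mean of probe sets, and lay from 0 to 1 with an array left out, with medians from −0.02 to 0.25 (sterol) and from −0.40 to −0.10 (fatty acid). The cause of these shifts was not tested.

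The mouse as a block gave 9 calls between untreated populations, 7 of them shared with the unblocked 8. It gave 0 after vismodegib and 1 for the difference, and changed no call of these pathways beyond those given beside their values (Cyp51, Ebp, Elovl6, Erlin1, Acsl5 and Lpin1). Mouse numbers do not pair mice across treatments. With the number as a block, 9 genes were called in Lgr5-positive cells, 7 shared and with Scd1 (adjusted p = 0.0431) and Acaca (adjusted p = 0.0349) added. In Lgr5-negative cells 1 was called, and Cyp27a1 there had an adjusted p of 0.0502 and Gpam one of 0.0344.

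With 2 mice a group, a missed threshold does not show that a gene did not move. Signals near 4.85, such as those of Elovl3, are close to the filter level. Among the other pathway genes, the calls of Msmo1, Abcg1, Cyp27a1, Gpam, Lpin1, Acadvl, Ppara, Erlin1, Acsl5, Dgat2 and Pgd were each lost without at least 1 array, and so was that of Elovl4 in each drug effect.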
